A study of Sus scrofa with 20 samples.

Results

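The transcripts of 8 genes of fatty acid oxidation and ketogenesis were followed through porcine biliary tree stem cells (pBTSCs) and sorted cells of pig liver. The genes were picked by name from the 25764 rows of the normalized count table. They are PPARA, CPT1A, CPT2, ACADVL, ACADL, ACADM, HADHA and BDH1. Each of the 8 names had a row, and all 8 passed the filter on low values (10 or more normalized counts in 2 or more libraries), as did 15576 genes in all.

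The pBTSCs came from gallbladder and the extrahepatic biliary tree of 5 newborn piglets. The study defines such stem cells as CD45-/EpCAM+ cells of the biliary tree. Its methods keep immunoselected stem/progenitors for some hours in a serum-free medium with insulin, lipoprotein and free fatty acids. There they form organoids with early mesenchymal cells. Whether each sequenced library had this step is not stated by library. The libraries S2, S7 and S11 were from H2B-GFP piglets aged 1, 1 and 2 days, and S15 and S20 from wild-type piglets aged 1 day. H2B-GFP piglets carry a fusion of histone H2B with green fluorescent protein in the ACTB locus, active in all cells. The 15 liver libraries fell into CD45+ (n = 5), CD45-/EpCAM+ (n = 4), CD45-/EpCAM- (n = 2), CD31+ (n = 2) and CD146+ (n = 2) sorts. CD45 marks leukocytes, EpCAM biliary epithelium and hepatic progenitors, and CD31 and CD146 endothelium. The study also lists CD146, with ICAM-1, for precursors of stellate cells. It describes CD45-/EpCAM- liver cells above a size limit as diploid hepatocytes. Whether the sequenced CD45-/EpCAM- libraries had that size limit is not stated by library. The study describes fetal or neonatal livers as its sources of such cells in general, but the donor, line and age behind each liver library were not found in the sources used here.

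Long-chain fatty acids enter mitochondria as acyl-carnitines. CPT1A, the liver form of carnitine palmitoyltransferase 1, makes them at the outer membrane, and CPT2 turns them back into acyl-CoA at the inner membrane. Acyl-CoA dehydrogenases then open each round of beta-oxidation, with ACADVL, ACADL and ACADM taking chains of falling length, and HADHA is the alpha subunit of the trifunctional protein that finishes the rounds for long chains. Liver turns much of the resulting acetyl-CoA into ketone bodies, and BDH1 reduces acetoacetate to beta-hydroxybutyrate. PPARA is the nuclear receptor that switches these genes on in fasting and at birth. Newborn pigs are known for weak hepatic ketogenesis compared with other newborn mammals.

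Several facts of the series bear on every value. The 3 libraries S13, S15 and S22 held fewer than 2000000 estimated reads, and the other 17 held from 2.13e+07 to 7.78e+07. In S22, a count of 3 reads was worth 156 normalized counts, against at most 4.27 in the deep libraries. All 15 liver libraries, whatever their sort, carried hepatocyte transcripts: the sum of 10 hepatocyte markers (ALB, HNF4A and others) was 1.15e+06 to 2.92e+06 normalized counts, against 27123 to 78414 in pBTSCs. PTPRC, which encodes CD45, ranged from 424 to 2687 normalized counts in CD45+ libraries and from 450.1 to 3027 in CD45-/EpCAM+ libraries, so its message did not separate those sorts. Mean EPCAM was 1623 in CD45+, 1496 in CD45-/EpCAM+ and 1303 in pBTSC libraries. PECAM1, the CD31 gene, was at 28048 to 36576 in pBTSCs and 20102 to 25291 in CD31+ libraries. Mean VWF was also higher in pBTSCs (21134, against 4421 over all liver libraries). Mean STAB2 (279 against 25974) and LYVE1 (1083 against 3552) were lower, and CDH5 was similar (15483 against 15476). Hemoglobin and other red cell transcripts summed to 193092 and 882414 normalized counts in CD45-/EpCAM- cells, 29315 to 128831 in pBTSCs and 1461 to 44105 in the other liver libraries. Smooth muscle and fibroblast markers summed to 338411 to 1.35e+06 in pBTSCs and 30620 to 149309 in liver. In S16 to S23, deep libraries of different sorts within a run of consecutive title numbers correlated at 0.994 to 0.995 (7 pairs), and deep liver libraries of the same sort from different runs at 0.935 to 0.984 (15 pairs). Over all runs, the 12 pairs of different sorts ranged from 0.926 to 0.995. Library S5 was nearer to S14 of its own sort (0.954) than to its neighbours S3 and S4 (0.926 and 0.942). What the runs stand for is not given, so p-values may measure a spread that is partly technical.

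Fold changes are differences of log2(normalized count + 1) between group means, fitted with limma over all 20 libraries, with Benjamini-Hochberg adjustment over 15576 genes. Calls needed an adjusted p under 0.05 together with a log2 fold change beyond 1 in either direction. All comparisons with pBTSCs share the same 5 pBTSC libraries. The values are not divided by transcript length, so levels are compared within a gene only. In such bulk samples, fewer cells of a type and less RNA per cell cannot be told apart.

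Against CD45-/EpCAM+ liver cells, pBTSCs had lower levels of BDH1, ACADM, PPARA and ACADVL, and no member was called higher. These 4 of 8 members stood beside 10.3% of all tested genes called lower and 14.8% called higher. With the adjusted p alone, 6 of 8 members were lower, CPT2 and HADHA being added, beside 16.5% of all genes. The median log2 fold change of the 8 members was -1.05, against 0.08 over all genes tested. ACADL and CPT1A were not called. With the number run added as a term in the fit, the same 4 genes were called. In every one of the 5 pBTSC libraries, BDH1, CPT2, ACADM, ACADVL and HADHA lay below all 15 liver libraries, a pattern shown by 9.21% of tested genes. No member lay above all liver libraries, as 11.9% of genes did.

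**Figure D1:**
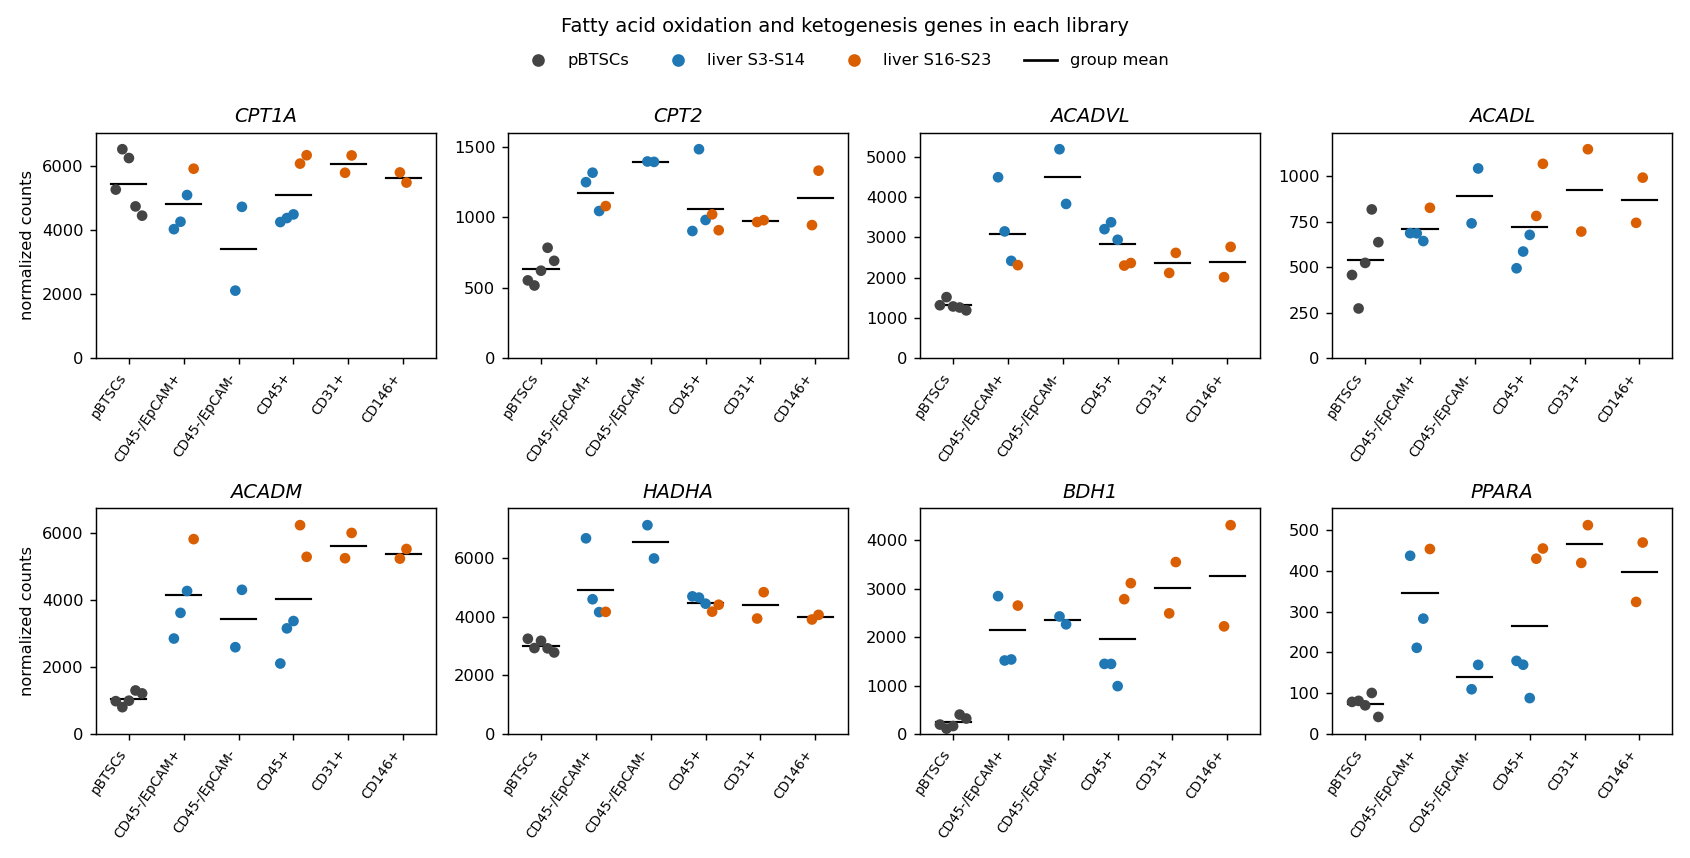
Normalized counts of the 8 genes in each library (y axis, linear from 0) by sorted group (x axis), with each point a library and each line a group mean. BDH1, CPT2, ACADM, ACADVL and HADHA lie lower in all 5 pBTSC libraries than in any liver library, while CPT1A and ACADL overlap.

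Entry into mitochondria gave an uneven picture. CPT1A, whose product sets the pace of long-chain import, measured 5259, 6519, 6243, 4733 and 4445 normalized counts in pBTSC libraries S2, S7, S11, S15 and S20. It measured 4023, 4254, 5088 and 5911 in CD45-/EpCAM+ libraries S4, S9, S13 and S19, and 2104 and 4719.96 in CD45-/EpCAM- libraries S5 and S14. The pBTSC values of CPT1A thus lay within or just above the liver range of 2104 to 6332. The fitted difference from CD45-/EpCAM+ cells was 0.18 (SE 0.21, adjusted p = 0.537), with a 95% interval from -0.26 to 0.61, which leaves out a change of 2-fold in either direction. Against CD45-/EpCAM- cells, CPT1A was 0.77 higher (SE 0.26, adjusted p = 0.0207), short of the fold threshold. That difference rested on the liver library S5: without S5 it was 0.19 (adjusted p = 0.645), and without S14 it was 1.35 (adjusted p = 7.62e-04). Either way 1 library was left in that group and was assumed to vary like the other groups.

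CPT2, the inner-membrane partner, behaved otherwise. It measured 551, 515, 620.03, 783 and 690.2 normalized counts in S2, S7, S11, S15 and S20, below every liver library (902 to 1483). The 4 CD45-/EpCAM+ libraries held 1249, 1316, 1044 and 1079, and both CD45-/EpCAM- libraries held 1396 and 1393. CPT2 was 0.90 lower on the log2 scale than in CD45-/EpCAM+ cells (SE 0.16, adjusted p = 3.08e-04), under the fold threshold, and was called lower against CD45-/EpCAM- cells at -1.16 (SE 0.20, adjusted p = 1.93e-04). Without the libraries under 2000000 reads, CPT2 was also called against CD45-/EpCAM+ cells, at -1.03.

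Against CD45-/EpCAM+ cells, 1 of 7 carnitine shuttle genes was called lower and 1 higher, near the 10.3% and 14.8% of all tested genes. CROT, the peroxisomal carnitine octanoyltransferase, was lower (log2 fold change -1.43), and CPT1B, the muscle form of carnitine palmitoyltransferase 1, was higher (1.13, adjusted p = 2.19e-04). The mean of CPT1B was 546 normalized counts in pBTSCs and 243 in CD45-/EpCAM+ cells. Markers of striated muscle summed to 40.6 to 217 normalized counts in pBTSC libraries (median 103) and 21.8 to 623 in CD45-/EpCAM+ libraries (median 61.2). MYL2 was at 0 in every library. The part of muscle cells in the CPT1B difference was not tested. SLC25A20, the carrier that moves acyl-carnitines across the inner membrane, was lower as CPT2 was, at -0.77 against CD45-/EpCAM+ cells (adjusted p = 0.00475, under the fold threshold) and -1.17, called, against CD45-/EpCAM- cells. ACACB, the acetyl-CoA carboxylase whose product malonyl-CoA inhibits carnitine palmitoyltransferase 1, was called higher in pBTSCs against both CD45- groups, at 2.38 (SE 0.33) and 4.46 (SE 0.41). ACACB measured 395 to 728 normalized counts in pBTSCs and 15.8 to 241 in liver, without overlap.

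The chain-length dehydrogenases separated by member. ACADM, which acts on medium chains, measured 979, 799, 993, 1298 and 1210.1 normalized counts in S2, S7, S11, S15 and S20. It measured 2847, 3613, 4265 and 5813 in the CD45-/EpCAM+ libraries S4, S9, S13 and S19. The lowest of the 15 liver values, 2102 in CD45+ library S3, was above the highest pBTSC value. The log2 fold change was -1.94 (SE 0.28, adjusted p = 3.24e-05) against CD45-/EpCAM+ cells and -1.68 (SE 0.34, adjusted p = 7.66e-04) against CD45-/EpCAM- cells.

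ACADVL, which takes the longest chains at the inner membrane, measured 1313, 1515, 1282, 1256 and 1185 normalized counts in the pBTSC libraries. The CD45-/EpCAM+ libraries S4, S9, S13 and S19 held 4497, 3149, 2416 and 2309.8, and the CD45-/EpCAM- libraries S5 and S14 held 5194 and 3833. The groups did not overlap. ACADVL was 1.19 lower against CD45-/EpCAM+ cells (log2 fold change -1.19, SE 0.19, adjusted p = 8.81e-05) and was called lower at -1.77 (SE 0.23) against CD45-/EpCAM- cells. The first call is near the fold threshold: without library S4 the difference was -0.99, and rescaling of all libraries to an equal total gave -0.88.

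ACADL, the long-chain enzyme of the matrix, showed no called difference. It measured 456, 272, 523, 817 and 636 normalized counts in S2, S7, S11, S15 and S20, against 686, 685, 643 and 826 in the 4 CD45-/EpCAM+ libraries. The highest pBTSC value lay inside the liver range of 493.1 to 1147. Its log2 fold change was -0.48 (SE 0.28, adjusted p = 0.185), with a 95% interval from -1.06 to 0.11, so a decrease of about 2-fold was not left out.

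HADHA measured 3254, 2936, 3183, 2926 and 2785 normalized counts in the pBTSC libraries, a narrow span. The CD45-/EpCAM+ libraries held 6687, 4604, 4164 and 4173, and the CD45-/EpCAM- libraries 7135 and 5998. HADHA was 0.67 lower on the log2 scale against CD45-/EpCAM+ cells (SE 0.13, adjusted p = 6.22e-04), under the fold threshold. Against CD45-/EpCAM- cells HADHA was called lower, at -1.12 (SE 0.16, adjusted p = 3.9e-05), and the call was lost without library S5 (-0.99). HADHB, the beta subunit of the same protein, was at -0.68 (SE 0.15, adjusted p = 0.00185) and -0.77 against the same liver groups and was not called against either.

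Of the 18 measured genes of mitochondrial beta-oxidation, members included, 13 were called lower in pBTSCs than in CD45-/EpCAM+ cells and 0 higher. Over all tested genes these shares were 10.3% and 14.8%. The median log2 fold change of the 18 genes was -1.61. Among these, ETFB, a subunit of the flavoprotein that takes electrons from the dehydrogenases, was at -2.18. The enoyl-CoA isomerases ECI1 and ECI2 were at -2.14 and -1.91. Of the genes not called, HADHA, HADHB and ACADL had negative values. In 15 of the 18 genes, all pBTSC libraries lay below all liver libraries, beside 9.21% of all tested genes.

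BDH1 differed more than any other member. It measured 194, 109, 163, 400 and 318 normalized counts in pBTSC libraries S2, S7, S11, S15 and S20. The CD45-/EpCAM+ libraries S4, S9, S13 and S19 held 2844, 1516, 1537 and 2649, and the CD45-/EpCAM- libraries S5 and S14 held 2425 and 2262. The highest pBTSC value was under the lowest liver value, 987 in CD45+ library S12. The log2 fold change of BDH1 was -3.26 (SE 0.39, adjusted p = 4.81e-06) against CD45-/EpCAM+ cells and -3.45 (SE 0.48, adjusted p = 2.43e-05) against CD45-/EpCAM- cells. Against CD45+, CD31+ and CD146+ cells it was -3.05, -3.79 and -3.85, each called.

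OXCT1, which lets tissues outside liver burn ketone bodies, leaned the other way from BDH1. It measured 1447, 1092, 1768, 1883 and 1877 normalized counts in the pBTSC libraries, against 509, 825, 1434 and 1074 in CD45-/EpCAM+ libraries, with overlap. OXCT1 was 0.82 higher against CD45-/EpCAM+ cells (SE 0.26, adjusted p = 0.0202, under the fold threshold) and was called higher at 1.12 (SE 0.33, adjusted p = 0.0092) against CD45-/EpCAM- cells.

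Of the 8 genes of ketone body metabolism, 6 were called lower against CD45-/EpCAM+ cells and 0 higher, beside 10.3% and 14.8% of all tested genes. Their median was -1.48. SLC16A6, a carrier that exports beta-hydroxybutyrate, was at -3.99, and ACAT1, the mitochondrial acetoacetyl-CoA thiolase, at -1.66. Hepatocyte transcripts moved with these genes. Relative to the mean of CD45-/EpCAM+ libraries, the mean of pBTSC libraries was 0.929% for ALB and 2.15% for the hepatocyte marker sum. It was 11.1% for BDH1, 21.5% for PPARA, 25.5% for ACADM, 42.4% for ACADVL, 53.9% for CPT2, 61.5% for HADHA, 76.2% for ACADL and 113% for CPT1A. All 8 members had a larger share than the hepatocyte sum, but not than each of its markers. HNF4A had means of 880 normalized counts in pBTSCs and 3831 in CD45-/EpCAM+ libraries, and APOA1 24859 and 83756. Both fell less than BDH1 and PPARA, and the other listed hepatocyte markers fell further than any member. The part of hepatocyte content in these differences was not tested.

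**Figure D2:**
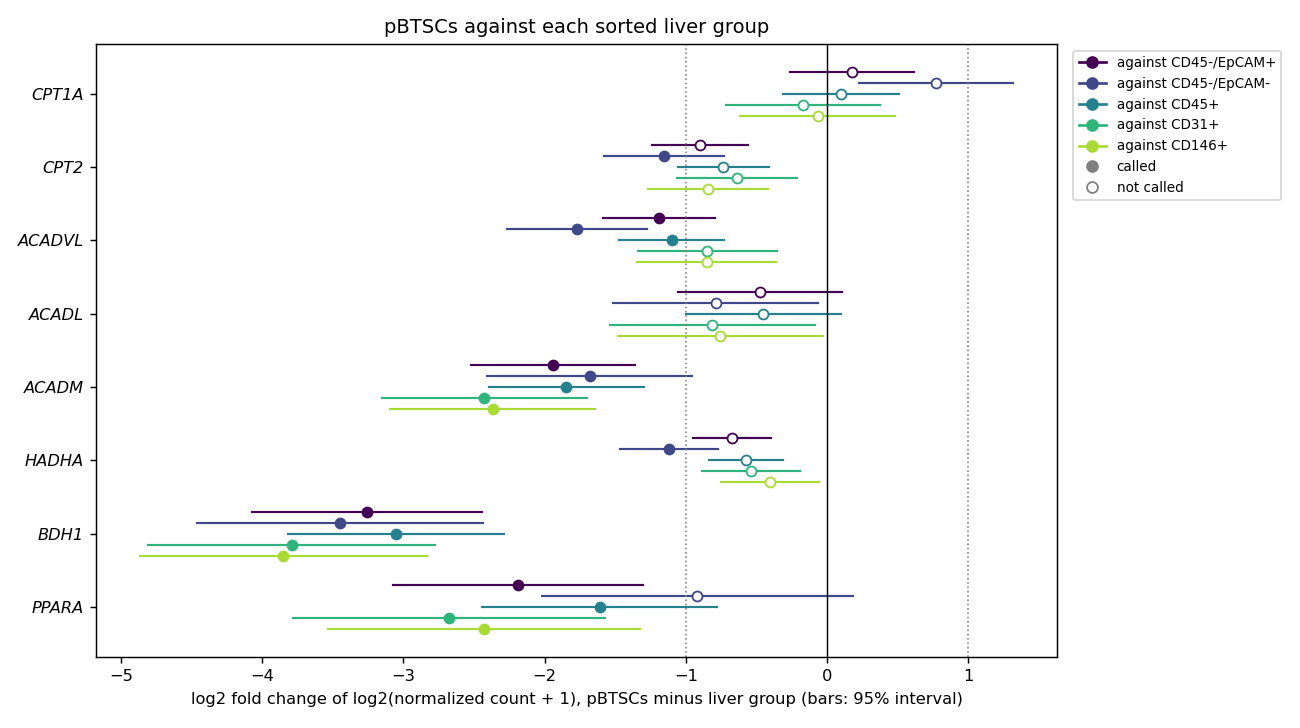
Fitted log2 fold change of each gene (x axis, log2 units, pBTSCs minus liver group) with its 95% interval, against each of the 5 sorted liver groups; filled points were called and dotted lines mark the fold threshold. BDH1 and ACADM are called lower against every group, PPARA against all but CD45-/EpCAM- cells, and CPT1A and ACADL against none.

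PPARA itself was expressed at low counts in pBTSCs, at 78.7, 81.1, 70.2, 101 and 41.7 normalized counts in S2, S7, S11, S15 and S20. The value in the shallow library S15 rested on about 8 reads. PPARA measured 437, 211, 283 and 453 in CD45-/EpCAM+ libraries S4, S9, S13 and S19, and 109.6 and 169 in CD45-/EpCAM- libraries S5 and S14. CD45+ libraries S3, S8, S12, S18 and S23 held 179, 169.7, 88.0, 429.7 and 455, of which S12 lay below the highest pBTSC value. The log2 fold change was -2.19 (SE 0.42, adjusted p = 5.44e-04) against CD45-/EpCAM+ cells, -1.61 (adjusted p = 0.00448) against CD45+ cells and -2.68 (adjusted p = 0.00133) against CD31+ cells. Against CD146+ cells PPARA was at -2.43 (adjusted p = 0.00253), and that call was lost without the shallow library S22 (-2.16, adjusted p = 0.0735), in which PPARA rested on about 9 reads. Against CD45-/EpCAM- cells PPARA was not called, at -0.92 (SE 0.52, adjusted p = 0.155), with a 95% interval from -2.02 to 0.18.

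Of 16 measured regulators of the pathway, 5 were called lower against CD45-/EpCAM+ cells and 1, ACACB, higher. Over all tested genes these shares were 10.3% and 14.8%. The median of the regulators was -0.19. CREB3L3, a hepatocyte membrane-bound factor that works with PPARA, was at -5.20, and SIRT3, the mitochondrial deacetylase, at -1.31. PPARGC1A, the coactivator of PPARA, was not called (-0.86, adjusted p = 0.0665). Of 8 known PPARA targets outside these steps, 5 were called lower and 0 higher, beside the same shares of all genes. CYP4A24, a fatty acid hydroxylase, was at -6.85 and VNN1, a pantetheinase, at -6.58. PLIN2, the lipid droplet coat protein, was at -2.27, and CIDEC, which enlarges lipid droplets, at -1.77.

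Fatty acid activation and the peroxisomal branch also held many lower genes. Of 10 genes of long-chain acyl-CoA entry, 7 were called lower and 0 higher against CD45-/EpCAM+ cells, beside 10.3% and 14.8% of all tested genes. FABP1, the fatty acid binding protein of liver, was at -8.74, the transport proteins SLC27A5 and SLC27A2 at -7.71 and -4.82, and the acyl-CoA synthetase ACSL1 at -4.65. Values of FABP1, SLC27A5, SLC27A2 and VNN1 were at or below the worth of 3 reads in at least 1 pBTSC library, so their folds depend on the pseudocount. Of 10 peroxisomal genes, 7 were called lower and 0 higher, beside the same shares of all genes. Among the 7 were the thiolase ACAA1 (-3.08), the oxidase ACOX2 (-2.68), and the bifunctional enzymes EHHADH (-2.48) and HSD17B4 (-1.99).

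**Figure D3:**
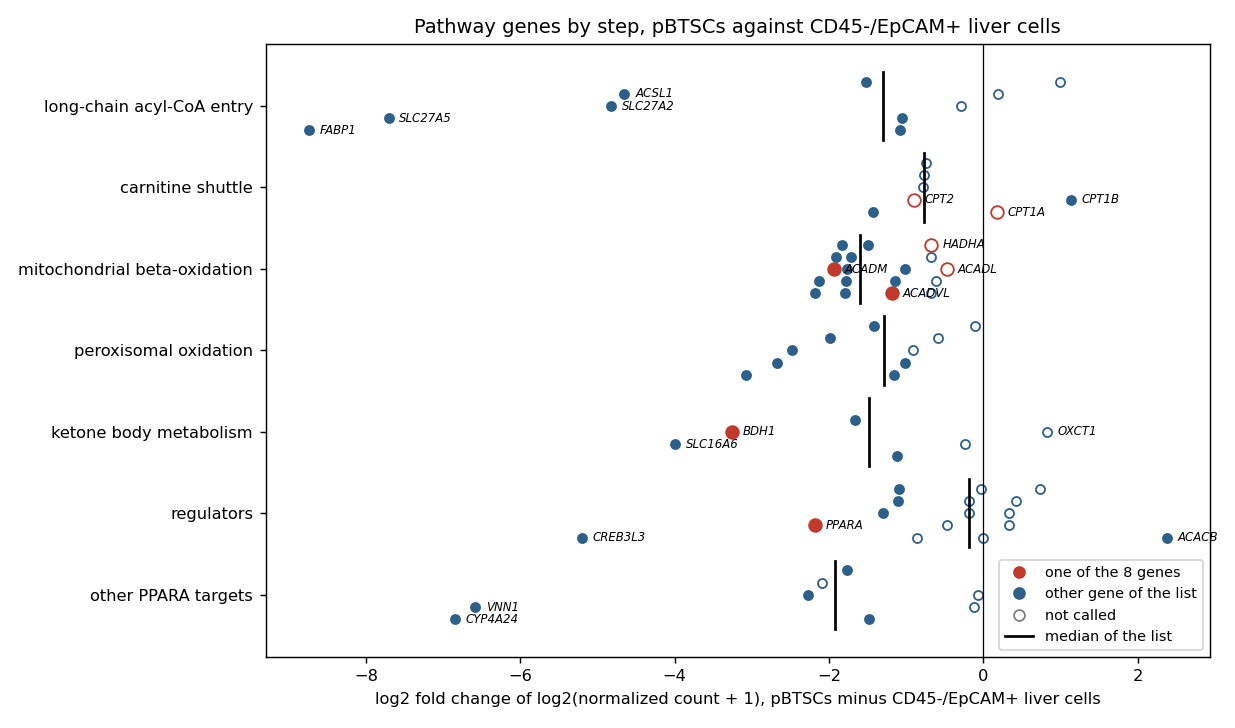
Fitted log2 fold change (x axis, log2 units, pBTSCs minus CD45-/EpCAM+ liver cells) of pathway genes by step (y axis), some not drawn, with red points for the 8 members, open points for genes not called and a bar at the median of each whole list. Mitochondrial beta-oxidation has a median of -1.61 and the regulators -0.19, and CPT1B and ACACB are the filled points above 0.

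The other liver groups gave 3 to 5 called members. Against CD45-/EpCAM- cells, BDH1, CPT2, ACADM, ACADVL and HADHA were called lower, 5 of 8 beside 16.6% of all genes, and 0 were called higher beside 20%. Against CD45+ cells, BDH1, ACADM, ACADVL and PPARA were called lower, 4 of 8 beside 9.54%. Against CD31+ and CD146+ cells, BDH1, ACADM and PPARA were called lower, 3 of 8 beside 7.62% and 7.75%. ACADM reached -2.43 (SE 0.34) against CD31+ cells and -2.37 (SE 0.34) against CD146+ cells. ACADVL was at -0.85 against both, with adjusted p = 0.0169 and 0.0122, under the fold threshold. With the number run as a term in the fit, ACADVL was called lower against both, at -1.04 and -1.05. Rescaling every library to the same total raised the share of calls that were higher in pBTSCs from 59.0% to 72.6% against CD45-/EpCAM+ cells and from 54.6% to 75.4% against CD45-/EpCAM- cells. The corresponding shares went from 53.6% to 66.8% against CD45+ cells, from 46.9% to 61.7% against CD31+ cells and from 65.1% to 76.0% against CD146+ cells. Under that scaling ACADVL lost its calls against CD45-/EpCAM+ and CD45+ cells, CPT2 and HADHA lost theirs against CD45-/EpCAM- cells, and CPT1A was called higher against CD45-/EpCAM- cells (1.25, adjusted p = 0.00356).

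Most members split the 5 pBTSC libraries by piglet line. Both wild-type libraries (S15 and S20) were above all 3 H2B-GFP libraries for BDH1, CPT2, ACADM and ACADL, a pattern of 19.3% of tested genes. They were below all 3 for CPT1A, ACADVL and HADHA, a pattern of 18% of tested genes. For HADHA, the shallow library S15 held 2926 normalized counts (about 233 reads), against 2936 in S7. For ACADVL, S15 held 1256 (about 100 reads), against 1282 in S11. Gaps that small are within the counting noise of so few reads. PPARA did not split by line, at 101 in S15 and 41.7 in S20 against 70.2 to 81.1 in the H2B-GFP libraries. BDH1 measured 318 and 400 normalized counts in wild-type libraries and at most 194 in H2B-GFP libraries. ALB moved in the same direction, with 19832 and 25087 normalized counts in S15 and S20 and 287 to 376 in the other pBTSC libraries, as did the sum of smooth muscle and fibroblast markers, at 1.34e+06 and 1.35e+06 against 338411 to 785297. RNA integrity was below that of intact RNA in every pBTSC preparation for which the study lists it, and lower for the H2B-GFP preparations than for S20. None is listed for S15 or for the liver libraries. The parts of these markers and of RNA integrity in the member values, and of integrity in the differences from liver, were not tested. Line and number run cannot be told apart. Without S15 and S20, the calls against CD45-/EpCAM+ cells stood and CPT2 was added, at -1.06.

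Within liver, CD45-/EpCAM+ and CD45-/EpCAM- cells were compared for the same genes. No member was called by limma, beside 2.8% of all genes called in either direction, and 3499 of the 15576 genes had an unadjusted p under 0.05. PPARA was not called, though its values did not overlap, with 211 to 453 normalized counts in CD45-/EpCAM+ libraries against 109.6 and 169 in CD45-/EpCAM- libraries. CPT2 also did not overlap, with 1044 to 1316 against 1393 and 1396 (log2 difference -0.26, adjusted p = 0.506). The share of all genes without overlap between these small groups was not computed. The log2 difference of PPARA was 1.27 (SE 0.54, adjusted p = 0.174), with a 95% interval from 0.13 to 2.41. HADHA was at -0.44 (adjusted p = 0.132), ACADVL at -0.58 (adjusted p = 0.163) and CPT1A at 0.60 (adjusted p = 0.197). The CPT1A value rested on S5, being 0.01 without S5 and 1.18 (adjusted p = 0.0131) without S14, with 1 library left in the CD45-/EpCAM- group. Of the 77 pathway genes, ACACB was called higher in CD45-/EpCAM+ cells, at 2.08 (adjusted p = 0.0231), and FABP3, a fatty acid binding protein of muscle, lower. Red cell transcripts were higher in both CD45-/EpCAM- libraries, where ACACB and PPARA were lower, and their part was not tested.

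Liver libraries with title numbers S3 to S14 (8 libraries) were then set against those with S16 to S23 (7 libraries). The sets differ in their sorts: all CD31+ and CD146+ libraries fall in the second, and both CD45-/EpCAM- libraries in the first. PPARA was lower in S3 to S14, with a lowest, median and highest value of 88.0, 174 and 437 normalized counts, against 324, 453 and 512 in S16 to S23. Library S4, of CD45-/EpCAM+ cells, was the member of the first set that overlapped the second. PPARA was the only member called, at -1.23 (SE 0.27, adjusted p = 0.00275), so 1 of 8 members was called lower beside 6.8% of all genes, and 0 higher beside 5.29%. With the adjusted p alone, 5 of 8 members differed, beside 36.9% of all genes.

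ACADM measured 2102, 3259.7 and 4301 normalized counts (lowest, median and highest) in S3 to S14 and 5232, 5519 and 6229 in S16 to S23, without overlap. CPT1A measured 2104, 4312 and 5088 in S3 to S14 and 5478, 5911 and 6332 in S16 to S23, also without overlap. These 2 of 8 members lay wholly below in S3 to S14, beside 7.06% of genes, and 0 wholly above, beside 7.97%. ACADM was 0.81 lower (log2 fold change -0.81, SE 0.14, adjusted p = 4.51e-04) and CPT1A 0.56 lower (-0.56, SE 0.15, adjusted p = 0.00837), both under the fold threshold. BDH1 was at -0.78 (adjusted p = 0.00827) with overlap. ACADVL went the other way, at 0.57 (SE 0.14, adjusted p = 0.0051), with 2416, 3291 and 5194 normalized counts against 2011, 2309.8 and 2765. CPT2 (0.23), HADHA (0.30) and ACADL (-0.37) had adjusted p = 0.142, 0.0547 and 0.0619.

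Around the members, several genes of the lists were called between the sets. SLC27A5 (-2.02), SLC27A2 (-1.43), EHHADH (-1.06), CYP4A24 (-1.31) and ACACB (-1.32) were called lower in S3 to S14. PLIN2 (1.63) and ANGPTL4 (1.26), a secreted inhibitor of lipoprotein lipase, were called higher. PPARA targets therefore went in both directions, 1 lower and 2 higher of 8 outside the oxidation steps, beside 6.8% and 5.29% of all genes. HADHB (-0.19), OXCT1 (-0.34), CPT1B (-0.09), SLC25A20 (0.44) and PPARGC1A (-0.69) were not called.

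**Figure D4:**
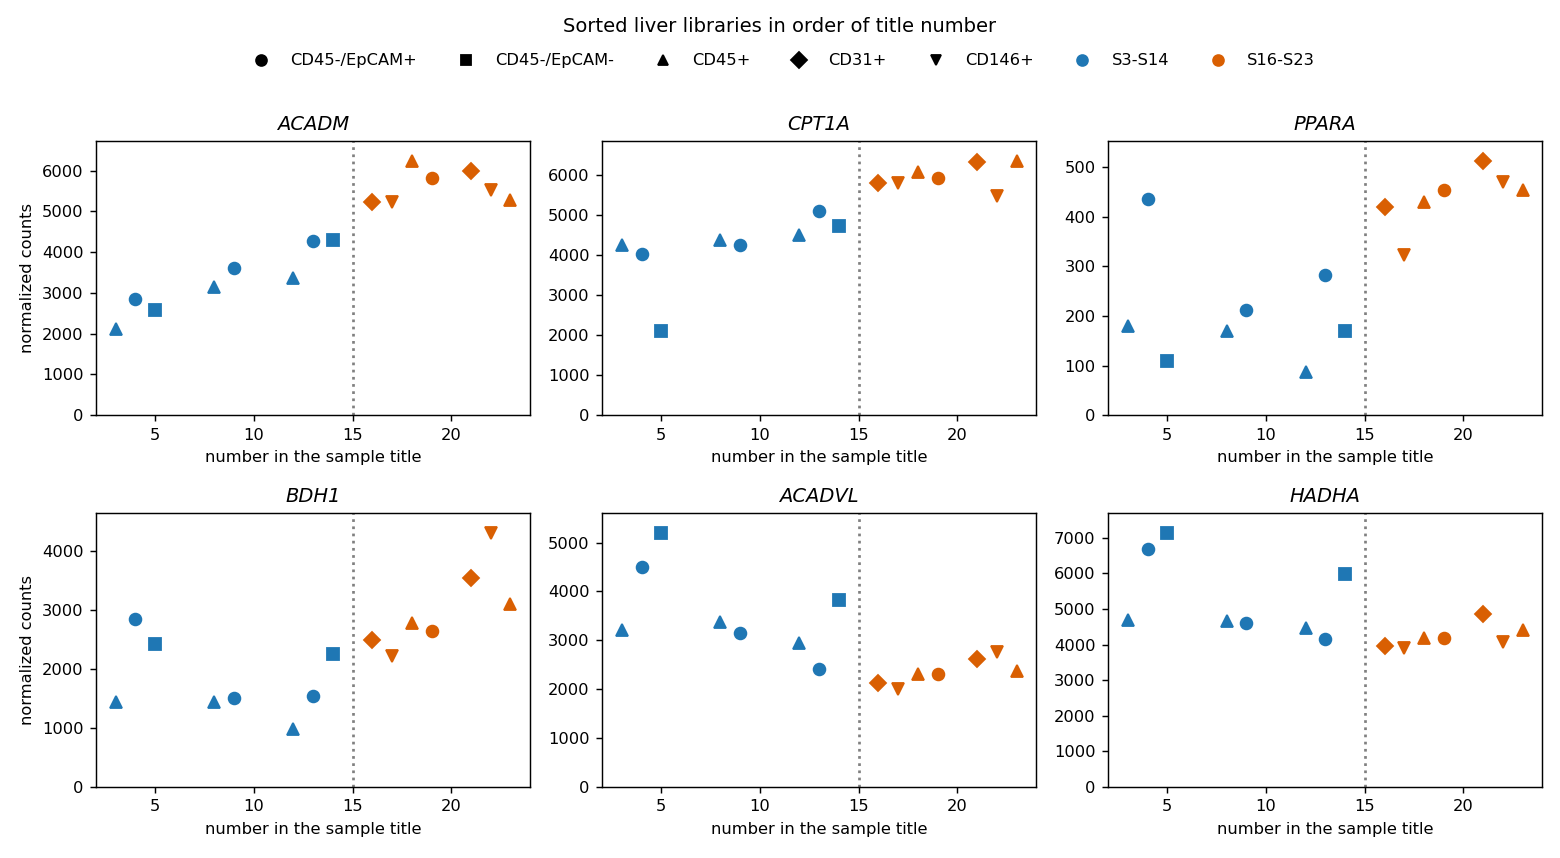
Normalized counts (y axis, linear from 0) of BDH1, ACADM, CPT1A, PPARA, ACADVL and HADHA in the 15 liver libraries by the number in their titles (x axis), with symbols for sorts, colours for S3 to S14 and S16 to S23, and a dotted line between them. ACADM and CPT1A do not overlap between the sets, and PPARA overlaps through library S4.

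The comparison of number sets was repeated within the sorts that occur on both sides. In CD45+ libraries PPARA was 88.0 to 179 normalized counts in S3, S8 and S12 and 429.7 to 455 in S18 and S23. In CD45-/EpCAM+ libraries it was 211 to 437 in S4, S9 and S13 and 453 in S19. With the sort as a term over all liver libraries, PPARA was at -1.26 (adjusted p = 0.0416). Over CD45+ and CD45-/EpCAM+ libraries alone it was at -1.26 with adjusted p = 0.0517. Both fits give the same difference by design, since every other sort occurs on 1 side only, and they differ in the spread used. Taking the mean of each of the 5 number runs as 1 sample, PPARA was at -1.25 with adjusted p = 0.0781 and no member was called. The summed hepatocyte markers had medians of 1.62e+06 normalized counts in S3 to S14 and 2.58e+06 in S16 to S23. Single hepatocyte markers went both ways: the means of ALB, TF and TTR were higher in S16 to S23. Means of APOA1, APOA2, SERPINA1, FGB, APOC3 and AHSG were higher in S3 to S14, and HNF4A was similar (3398 and 3361). The red cell sum was 12642 to 882414 in S3 to S14 against 1461 to 2573 in S16 to S23. Smooth muscle and fibroblast markers had median sums of 58129 and 133799 normalized counts, and endothelial markers 42793 and 83228. PECAM1, which encodes CD31, was at most 16311 in S3 to S14 and at least 19884 in S16 to S23. COL3A1, a fibroblast collagen, was at most 28829 and at least 32692. The other measured markers of these lists, VWF, CDH5, STAB2, LYVE1, ACTA2, DES and COL1A1, overlapped between the sets. Mean DES was 1734 in S3 to S14 and 977 in S16 to S23, and mean ACTA2 was 22553 and 22650. Their part was not tested, and donor, run and set cannot be told apart.

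Over the 17 deep libraries, the genes most like each member were named by Pearson correlation of log2 values, as a description. The points share libraries and the wide gap between pBTSCs and liver. BDH1 was closest to ALDH2 (r = 0.993) and C6 (0.992), ACADM to SLC27A2 (0.978) and LAP3 (0.977), and PPARA to GAREM1 (0.976) and SH3BGRL2 (0.974). ACADVL was closest to CDC34 (0.994) and P4HB (0.986), and HADHA to ARMC6 (0.970) and ACADVL (0.965). CPT2 was close to MRFAP1 (0.952), ACADL to LZTFL1 (0.905) and SLC18B1 (0.905), and CPT1A to DIP2B (0.952) and PDZD2 (0.945). Between members, BDH1 and ACADM correlated at 0.929, whereas CPT1A correlated at -0.19 with BDH1 and -0.51 with CPT2.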

How the data were processed

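RNA was purified with Qiagen RNeasy and sequenced from stranded poly(A) libraries (Illumina TruSeq). The authors deposited 1 table of normalized counts for the 20 libraries, a signal that is never negative, and the submitters' processing notes name STAR, Salmon and DESeq2. Versions and genome build are not given in the sources used here, so no coordinates are printed. Library columns were matched to groups by title and label, and line and age of pBTSC piglets come from the study's supplementary list. Read depth was estimated from the step between low values. Between 60.3% and 84.3% of low values lay within 0.05 of a whole read, so read counts were not recovered and count models were not used.

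The deposited values plus 1 were log2-transformed here. Genes that reached 10 normalized counts in 2 or more libraries were fitted by linear models in limma 3.58.1 (lmFit, then eBayes with trend, under R 4.3.3), p-values being adjusted by Benjamini-Hochberg, with all 6 sorted groups in 1 fit, or the 15 liver libraries for the number sets. The step was tested on simulated data. Figures and summaries used Python 3.11.15, pandas 2.3.3 and matplotlib 3.10.9. Alternatives were other pseudocounts, filters, scalings and array weights, and leaving out each library. Chosen after the data were seen were the number run as a term, means of number runs, and leaving out S15 and S20.

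The 8 genes, the 7 pathway lists (77 of 83 genes had a row), the 8 marker lists (42 of 45) and the 2 sets of title numbers were chosen with earlier results of these data known. Named genes are the members, up to 4 called genes with the largest change per list and comparison, OXCT1, HADHB, SLC25A20, CPT1B and PPARGC1A, and the 2 genes most correlated with each member. Some genes under this rule are not reported here. Within a sorted group, the lowest pair of libraries (S17 and S22) differed by 2.19 times the variance of counting noise, and no library was counted as a repeat. Pairs of different sorts within a run went lower, to 1.38 for S21 and the shallow S22. Deep pairs within a run of S16 to S23 were at 2.69 to 3.81. Whether libraries of a run share material was not tested, so the liver libraries may not be independent.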

Additional observations from a re-analysis of the deposited data

Results flagged for a closer look

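Among 40 sets of 4 to 8 libraries examined, 2 held a library far from the others. That is the rate of about 1 in 20 that chance alone gives. CPT1A in liver library S5, of CD45-/EpCAM- cells, was 2104 normalized counts, the lowest of the 8 libraries S3 to S14, and the nearest value was 4023. CPT2 in CD45+ library S8 was 1483, the highest of the 5 CD45+ libraries, and the nearest was 1020.06.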

How the results depend on the processing

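Over 7 comparisons, 216 counts of called members were recomputed and 209 stayed within 1.5 times. With the adjusted p alone, called members numbered 5 between number sets, beside 36.9% of all tested genes. They numbered 6 against CD31+ cells and 5 against CD146+ cells. For these 2 groups the share of all genes is not given here. It is bounded by the genes with an unadjusted limma p under 0.05, which were 4400 and 6044 of 15576. Between number sets 0 members were called over CD45+ and CD45-/EpCAM+ libraries with the sort as a term, and 0 with means of the 5 number runs. Leaving out single libraries gave 2 to 5 called members against CD146+ cells and 0 to 1 between CD45-/EpCAM+ and CD45-/EpCAM- cells. Of 1728 recomputed member values, 12 lost a call, 25 gained one, 7 changed sign without being called, and 0 called values changed sign. Rescaling to the same total moved the median log2 fold change of all genes from 0.08 to 0.39 against CD45-/EpCAM+ cells and from 0.04 to 0.51 against CD45-/EpCAM- cells. Counts over all genes were less stable: higher and lower calls between number sets were 824 and 1059, against 214 and 330 with the sort as a term, 313 and 429 over CD45+ and CD45-/EpCAM+ libraries alone, and 64 and 47 with means of number runs. Against CD146+ cells they were 2255 and 1207, against 765 and 804 without the shallow libraries and 1012 and 671 with array weights. Against CD31+ cells they were 1049 and 1187, against 2137 and 1667 with array weights. Between CD45-/EpCAM+ and CD45-/EpCAM- cells they were 316 and 120, against 611 and 107 rescaled to the same total, 619 and 242 without the shallow libraries, 32 and 7 with array weights, and 0 within S3 to S14 or with those 2 groups alone. Without CD45-/EpCAM- library S14 that comparison gave 843 and 646, and without S5 it gave 0. Single libraries also moved the counts against CD31+ cells (337 and 681 without S21), against CD146+ cells (472 and 678 without S22) and against CD45-/EpCAM- cells (2024 and 1373 without S5, from 3114 and 2584). With the adjusted p alone the counts over all genes rose to 3456 and 2573 against CD45-/EpCAM+ cells, 2920 and 2341 against CD45+ cells, and 2839 and 2912 between number sets. The causes were not tested. Replicate numbers follow accession order and donors are not given by library, so libraries were not matched by number, and the number run was fitted as a term in their place. Depth limits PPARA most, at about 8 reads in S15, 9 in S22 and 11 in S13.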
